A study of Mus musculus with 21 samples.

Results

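BPD6 is a mouse melanoma line, grown here as tumors in mice whose food was either the control chow or low in methionine (MR, methionine restriction). The comparison took every library of the BPD6 tumors: 4 control libraries and 3 MR libraries, 7 of the 21 samples in the series, with all 15184 listed genes entering by gene symbol. The remaining samples are MC38 colon carcinoma tumors, used below for the difference between tumor models, and splenic CD8+ T cells, not used here. The labels call the material tumor cells and name no further treatment, age, strain or sex of the hosts. They name 1 line per model, so BPD6 stands for a single tumor line. Whether each library is its own animal is not stated, and a p-value here therefore reflects how far these libraries scatter, part of which can be technical. The MR columns are numbered 1, 2 and 4, and libraries are called by these numbers.

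Methionine is an essential amino acid that starts every protein and, through S-adenosylmethionine, supplies methyl groups to DNA, RNA, histones and lipids. Cells short of an amino acid slow translation and raise the transcription factor ATF4, which turns on genes of amino acid import and synthesis. In a tumor, bulk RNA comes from the malignant cells and from the host's vessels, fibroblasts and immune cells, and type I and type II interferons turn on antiviral and antigen presentation genes in nearly all of them. In bulk RNA, fewer cells of a type and less RNA per cell cannot be told apart.

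The estimated counts summed to 18346332 to 20836084 per library, and 13978 genes were abundant enough to test. CPM below are counts scaled to a common library size after TMM scaling. Each fold change is the log2 ratio of MR to control, given with its standard error (SE). With edgeR's quasi-likelihood test, 0 of 13978 genes (0%) passed an adjusted p under 0.05, and the lowest adjusted p was 0.9997. An unadjusted p under 0.05 was reached by 258 genes (1.85%), 149 higher (1.07%) and 109 lower (0.780%) with MR. The 1.85% is below the share that the threshold itself allows where no gene differs, so it shows no excess. All 3 MR libraries lay above or all below all 4 control libraries for 475 genes (3.40%), 210 of them higher (1.50%) and 265 lower (1.90%). These 475 genes are a description and are not read as an excess. DESeq2 called 1 gene, Atf3, and limma-voom called 0, with 272 genes at an unadjusted p under 0.05. The authors' deposited table holds 1 gene at an adjusted p under 0.05, again Atf3. It rests on the same libraries and is no independent support. The values that follow therefore describe libraries, and no gene is said to have risen or fallen.

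Marker genes of muscle and of epidermis varied widely between libraries of the same diet. Skeletal muscle genes (20 of 20 tested, among them Atp2a1, the calcium pump of fast muscle, and Neb, a giant filament protein) summed to 8645 CPM in control 4 and 5992 CPM in MR 2. The same sum was 1285, 1260 and 165 CPM in controls 1 to 3, and 162 and 74.7 CPM in MR 1 and MR 4. Thus 1 library of each diet stood far above the rest. Genes of keratinocytes, the cells of the epidermis, marked another pair: Krt5, a keratin of the basal layer, was at 129 CPM in control 3 and 360 CPM in MR 1, and between 0 and 1.37 CPM in the other 5 libraries. The summed keratinocyte list, 16 listed genes, reached 2264 CPM in MR 1, stood at 870 CPM in control 3 and lay between 153 and 414 CPM elsewhere. Control 3 and MR 1 were also each other's closest library over all genes (Spearman 0.991), closer than any pair within a diet group (highest 0.985). The first principal component held 45.9% of the variance and ran from muscle genes to keratin genes. Red cell genes led by hemoglobin were highest in MR 4, at a sum of 278 CPM, and lowest in control 3, at 42.6 CPM. The part of these marker levels in the results below was examined only by leaving out the libraries concerned and by taking the 2 levels as covariates.

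The melanoma label could be checked only in part. Of 22 melanocyte genes looked for, 13 are in the table, and the pigment genes Tyr, Tyrp1, Dct and Mlana are not among them; the table leaves out genes of very low count. Pmel, a protein of the pigment organelle, was read at 0.882 to 1.67 CPM. Mitf, the master regulator of the melanocyte lineage, was at 15.1, 18.3, 15.2 and 25.5 CPM in controls and 16.4, 23.2 and 20.5 CPM with MR, so the groups overlapped (log2 fold change 0.12 ± 0.22). Axl, a receptor kinase typical of melanoma cells with low pigment programs, was at 891 to 1201 CPM. Bulk RNA does not show which cells the Axl RNA came from. Sox10, a transcription factor of neural crest cells, was lowest in control 1, at 0.325 CPM, and highest in MR 1, at 11.2 CPM. Xist, read from the inactive X chromosome of female cells, was at 30.05 to 82.4 CPM, and Ddx3y, a Y-linked helicase, at 70.6 to 85.4 CPM, so every library held RNA from both. The pigment genes thus gave the label little support, and the tumors are called BPD6 below as their labels have it.

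Immediate-early genes, the transcription factors and feedback phosphatases that cells switch on within minutes of a stimulus, were the gene list most clearly apart between the diets. Of 23 members, all tested, 20 had a higher mean with MR, with a median log2 fold change of 0.32, while over all genes tested 48.4% were above 0 and the median was -0.01. The summed list was 2060, 2241, 2414 and 2301 CPM in the control libraries and 3060, 2527 and 2838 CPM in the MR libraries. The MR libraries were all above the controls. Of 52 gene lists described here, only the immediate-early list had a mean log2 level that did not overlap between diets. Among all genes tested, 3.40% did not overlap in either direction. A single list of 52 is no larger a share than that, so the separation by itself carries no weight. Lists and members were also chosen with earlier results of these data known. No member passed the edgeR test with adjustment over all genes. An unadjusted p under 0.05 was reached by 7 members, and the diet groups did not overlap for 5 (Atf3, Fosb, Fos, Junb and Klf2). Over all genes tested 1.07% were higher at that p and 1.50% were higher without overlap.

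Atf3 encodes a stress-responsive repressor that is both an immediate-early gene and a target of ATF4; it lies on chromosome 1 at 191170296 to 191183333 (GRCm38.p6). Its level was 9.11, 14.0, 12.7 and 11.3 CPM in the control libraries and 23.9, 25.5 and 21.97 CPM with MR. Every MR library thus lay well above every control, with a log2 fold change of 1.01 ± 0.16. The edgeR adjusted p was 0.9997, the DESeq2 adjusted p 0.00122, and over all 17 alternatives for this gene the adjusted p ran from 0.00122 to 0.99999. The second lowest of these was 0.835, so DESeq2 alone called it. The authors' deposited table gives a log2 fold change of 1.02 with an adjusted p of 0.00141. Leaving out any single library kept the fold change between 0.91 and 1.11.

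Fos and Fosb encode partners of the dimeric factor AP-1. Fos was at 14.5, 9.65, 13.4 and 9.06 CPM in controls and 35.7, 25.4 and 16.03 CPM with MR, a log2 fold change of 1.14 ± 0.29. The lowest MR library was only just above the highest control. Fosb was at 36.0, 31.2, 24.4 and 22.5 CPM in controls against 52.96, 48.6 and 43.1 CPM with MR (0.76 ± 0.17), with a wider gap between the groups. Junb, another AP-1 subunit, had a smaller difference, 203 to 252 CPM in controls and 264 to 288 CPM with MR (0.32 ± 0.10). Klf2, a zinc-finger factor of endothelium and resting lymphocytes, was at 11.8 to 18.9 CPM in controls and 21.8 to 24.4 CPM with MR (0.53 ± 0.16). Dusp1, a phosphatase that switches off MAP kinases, overlapped in 1 library: controls were at 46.3, 33.0, 65.8 and 38.9 CPM and MR libraries at 118, 59.5 and 87.1 CPM (0.94 ± 0.28). Nr4a1, an orphan nuclear receptor, also overlapped, at 65.9 to 158 CPM in controls and 141 to 220 CPM with MR (0.80 ± 0.28). Not every member differed: Jun (-0.04 ± 0.08), Ier2 (0.02 ± 0.13), Ier5 (-0.01 ± 0.20) and Egr3 (-0.13 ± 0.41) lay near 0, and Egr1 overlapped widely, at 104 to 243 CPM in controls and 184 to 252 CPM with MR. Without the libraries of highest keratinocyte signal the count was again 20 of 23, and without those of highest muscle signal it was 21 of 23. Muscle and keratinocyte genes together as covariates gave 22 of 23.

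The promoters of Atf3 and Fos each hold a cAMP response element core, the site read by CREB and ATF proteins. They are shown as examples with the core and do not stand for the list. Fosb, of lower p than Fos, lacks the core in its window and is not shown. The 250 bases before the RefSeq start site (GRCm38.p6) are written in the direction of the gene, with the core TGACGT, or its reverse complement, in capitals; they lie at chr1:191183334-191183583 on the minus strand for Atf3 and chr12:85473640-85473889 on the plus strand for Fos.
Atf3: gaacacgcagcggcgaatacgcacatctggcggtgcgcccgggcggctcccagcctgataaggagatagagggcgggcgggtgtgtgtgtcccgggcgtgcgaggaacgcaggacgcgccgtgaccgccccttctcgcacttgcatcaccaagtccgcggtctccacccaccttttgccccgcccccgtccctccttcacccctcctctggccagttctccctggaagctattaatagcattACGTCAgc
Fos: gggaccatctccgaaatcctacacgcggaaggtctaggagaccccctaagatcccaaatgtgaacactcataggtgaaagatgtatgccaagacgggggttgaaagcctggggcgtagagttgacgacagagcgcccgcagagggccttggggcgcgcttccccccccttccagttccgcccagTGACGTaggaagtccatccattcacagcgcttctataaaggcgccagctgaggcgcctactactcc
The core begins 8 bases before the start site in Atf3, on the opposite strand, and 66 bases before it in Fos. Promoter windows of 300 bases were held for 20 of the 23 members, and 7 of these genes carried the core on either strand, against 8.37% of 27025 genes with a window and 12.8% of the tested genes with one. Fosb, Junb and Klf2 were not among the 7 genes, while Dusp1, Nr4a3, Btg2, Maff and Egr2 were. A match describes the sequence and does not show that a factor is bound.

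Type I interferon-stimulated genes, which block viral replication and sense nucleic acids, formed the largest list with every member on the same side of 0. Skeletal muscle genes (20 of 20 lower), keratinocyte genes (5 of 5 higher) and red cell genes (5 of 5 higher) also had a single sign. A single sign can rest on 1 library, since 19 of 20 muscle genes were higher without control 4. All 35 interferon genes had a higher mean with MR, with a median log2 fold change of 0.64, from 0.25 for Parp14 to 1.15 for Ifit3. The summed list was 1046, 1269, 1487 and 495 CPM in control libraries and 2281, 1596 and 1186 CPM with MR. The groups overlapped, since MR 4 lay below controls 2 and 3, and control 4 was lowest of all. The mean log2 level varied within the diet groups with an SD of 0.63, about as much as the median difference between them. No member passed the edgeR test, 6 reached an unadjusted p under 0.05, and for 5 (Ifit2, Rsad2, Ifit3, Ifit3b and Oasl1) the groups did not overlap. The shares over all genes tested were 1.07% higher at that p and 1.50% higher without overlap.

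Ifit2, one of the RNA-binding IFIT proteins, was at 56.3, 63.5, 73.2 and 47.0 CPM in controls and 98.9, 91.2 and 84.1 CPM with MR (log2 fold change 0.61 ± 0.15). It was the member with the tightest groups. Rsad2, which encodes the antiviral enzyme viperin, was at 19.9, 29.1, 31.0 and 10.1 CPM in controls and 57.5, 39.6 and 38.8 CPM with MR (1.01 ± 0.35). Ifit3 was at 42.7, 64.1, 73.2 and 14.9 CPM against 151, 80.8 and 94.0 CPM (1.15 ± 0.48). Control 4 was the lowest library for all 3 genes. Ifit3b is a near-identical copy of Ifit3, and reads may have been split between the pair.

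The list's size depended on single libraries. Without control 4 its median log2 fold change was 0.39, without MR 1 it was 0.40, and without control 4 and MR 2 together, the libraries of highest muscle signal, it was 0.35 with 34 of 35 members higher. Without control 3 it was 0.87. With the muscle and keratinocyte levels as covariates the median was 0.46 and 35 of 35 were higher. In control 4, which had the highest muscle signal, MHC class I genes (5733 CPM against 8836 to 9418 CPM in the other controls) and interferon gamma response genes (340 CPM against 930 to 1144 CPM) were also lowest. MR 2, the other library of high muscle signal, had 10040 and 1264 CPM in these lists, above every control. MHC class II genes were low in control 4, at 166 CPM, and in MR 4, at 149 CPM, against 542 to 814 CPM in the other 5 libraries.

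The promoters of Rsad2 and Ifit3, members whose diet groups did not overlap, hold the core of the interferon-stimulated response element. This core is the letters GAAA, any 2 bases, then GAAA again, and is read by interferon regulatory factors. Both are shown as examples with the core and do not stand for the list. Ifit2, of lower p than both, lacks it and is not shown. The 250 bases before the RefSeq start site (GRCm38.p6) have the core, here in its reverse complement, in capitals; they lie at chr12:26456453-26456702 on the minus strand for Rsad2 and chr19:34583279-34583528 on the plus strand for Ifit3. The RefSeq promoter table places the start of Ifit3 at 34583529, which is 410 bases inside the span RefSeq gives the gene, so its window lies within that span; for Rsad2, Atf3 and Fos the start is the end of the span.
Rsad2: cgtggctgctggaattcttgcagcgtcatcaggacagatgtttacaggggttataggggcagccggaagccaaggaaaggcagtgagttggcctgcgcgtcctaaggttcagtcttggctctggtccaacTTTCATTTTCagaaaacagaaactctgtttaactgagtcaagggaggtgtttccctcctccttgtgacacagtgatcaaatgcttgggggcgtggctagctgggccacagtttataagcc
Ifit3: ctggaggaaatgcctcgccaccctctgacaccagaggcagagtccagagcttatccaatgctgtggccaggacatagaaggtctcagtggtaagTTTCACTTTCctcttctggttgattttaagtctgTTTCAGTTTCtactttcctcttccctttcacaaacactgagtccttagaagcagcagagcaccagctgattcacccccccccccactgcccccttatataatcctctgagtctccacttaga
The core begins 120 bases before the start in Rsad2 and 156 and 122 bases before it in Ifit3. Of the other members without overlap, Ifit3b holds it in its window of 300 bases, and Ifit2 and Oasl1 do not. Of all 27025 genes with a window, 3.99% hold it on either strand. Windows were held for too few of the interferon genes (26 of 35) for a share over the list.

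**Figure D1:**
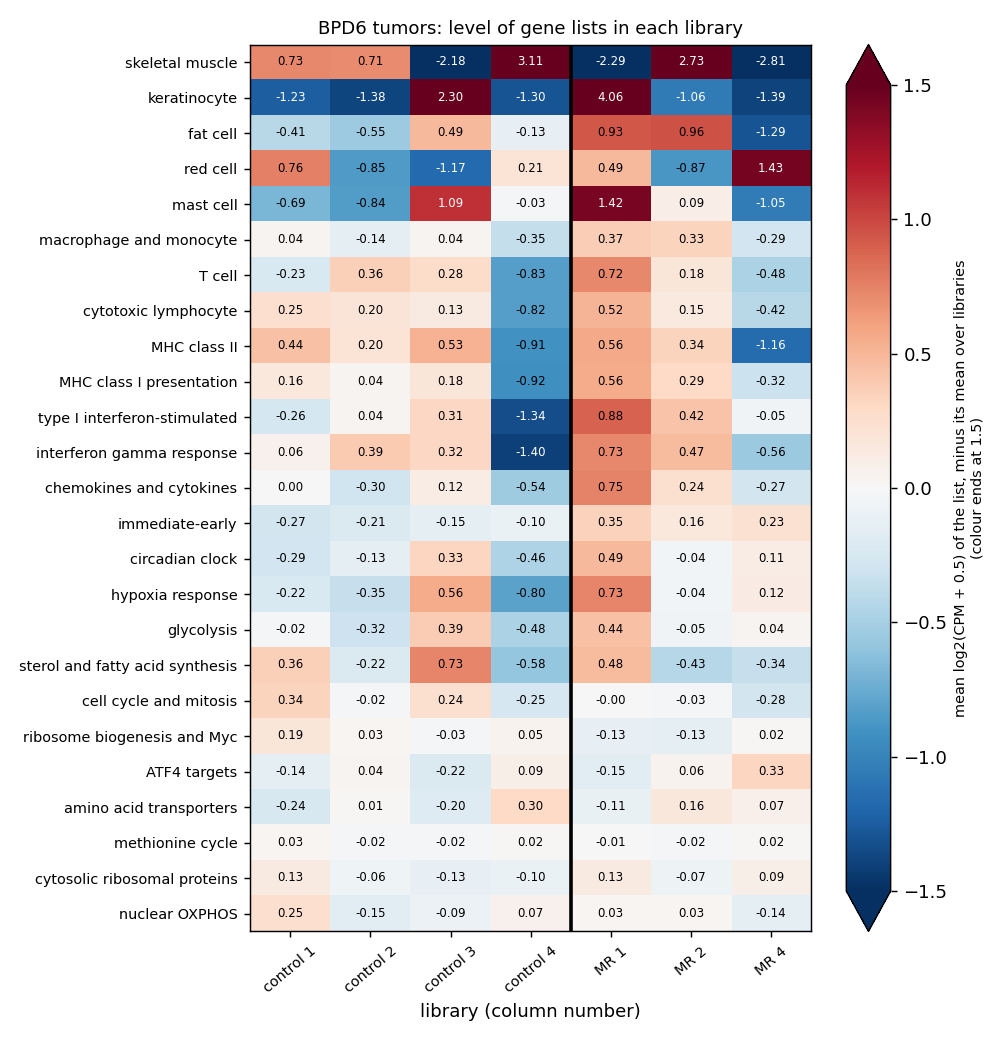
Mean log2 level of 25 gene lists in each BPD6 library, as the deviation from the list's mean over the 7 libraries (colour scale ends at 1.5); the vertical line separates 4 control from 3 MR libraries. Muscle genes are high in control 4 and MR 2, keratinocyte genes in control 3 and MR 1, and the immediate-early row alone has every MR library above every control library, from 0.16 to 0.35 against -0.27 to -0.10.

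Antigen presentation and interferon gamma genes had higher means with MR in most members, and none reached an unadjusted p under 0.05. MHC class I presentation genes were higher for 19 of 21 (median 0.33), and interferon gamma response genes for 19 of 23 (median 0.39). B2m, the light chain of MHC class I, was at 1880, 1906, 1842 and 1311 CPM in controls and 2639, 2050 and 1896 CPM with MR (0.34 ± 0.17), so the groups overlapped. With 1 library left out the MHC class I median ran from 0.10 (without MR 1) to 0.52 (without MR 4), and the interferon gamma median from 0.024 to 0.72 without the same libraries. Without the libraries of highest muscle signal 12 of 21 and 12 of 23 were higher, with medians of 0.016 and 0.011. MHC class II genes were higher for 3 of 10 (median -0.02).

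Cd274 encodes PD-L1, the ligand that restrains T cells through PD-1 (chromosome 19, 29362107 to 29388095, GRCm38.p6). Its level was 16.4, 24.2, 25.8 and 12.5 CPM in the control libraries and 50.7, 26.2 and 34.4 CPM with MR. The groups did not overlap, though MR 2 and control 3 nearly met. The log2 fold change was 0.91 ± 0.30, with an unadjusted p of 0.016 and an edgeR adjusted p of 0.9997. Of 11 checkpoint genes tested, 10 had a higher mean with MR and Cd274 alone had groups that did not overlap. Among all genes tested 1.50% were higher without overlap. Pdcd1lg2, the other PD-1 ligand, was at 0.656 to 1.74 CPM in controls and 1.05 to 2.91 CPM with MR (0.81 ± 0.50).

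Genes of T cells and killer cells were rare and varied by library. The T cell list summed to 15.3, 27.2, 22.5 and 7.14 CPM in controls and 35.2, 23.6 and 10.9 CPM with MR. Cd8a, a coreceptor of cytotoxic T cells, was at 3.09, 5.50, 2.08 and 0.213 CPM in controls and 3.37, 5.54 and 2.26 CPM with MR (0.45 ± 0.79). The diets overlapped in both, and control 4 was lowest. The means were higher for 14 of 15 T cell genes (median 0.33) and 13 of 15 cytotoxic genes (median 0.25). Without MR 1 these medians were -0.30 and -0.19, so their sign rested on that library. Gzmb (0.29 ± 0.51) and Prf1 (0.15 ± 0.55), the granzyme and the pore-former of killer cells, overlapped widely. Ifng, the type II interferon itself, was too low to test, with counts of 0 to 7 in controls and 9 to 16 with MR. Cxcl9, a chemokine induced by interferon gamma that draws T cells, was at 31.7, 49.3, 43.6 and 9.81 CPM in controls and 62.7, 63.0 and 18.0 CPM with MR (0.51 ± 0.57).

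Macrophage and monocyte genes had a higher mean with MR for 23 of 26 members, with a small median of 0.16. Cd68, a lysosomal protein of macrophages, was at 53.1, 57.4, 54.0 and 48.0 CPM in controls and 73.1, 66.8 and 66.5 CPM with MR (0.37 ± 0.09). The MR libraries were all above the controls in it. The list's median was -0.03 without the libraries of highest muscle signal. With 1 library left out it ran from 0.046 (without MR 2) to 0.33 (without MR 4). Chemokine and cytokine genes were higher for 22 of 24 (median 0.52, and 0.21 without MR 1). Ccl4, which attracts monocytes and T cells, was at 0.693 to 1.45 CPM in controls and 1.67 to 4.39 CPM with MR (1.28 ± 0.41). Ccl11, the eosinophil attractant eotaxin, was at 4.64 to 7.16 CPM in controls and 7.19 to 11.99 CPM with MR (0.70 ± 0.25), the groups meeting almost exactly.

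**Figure D2:**
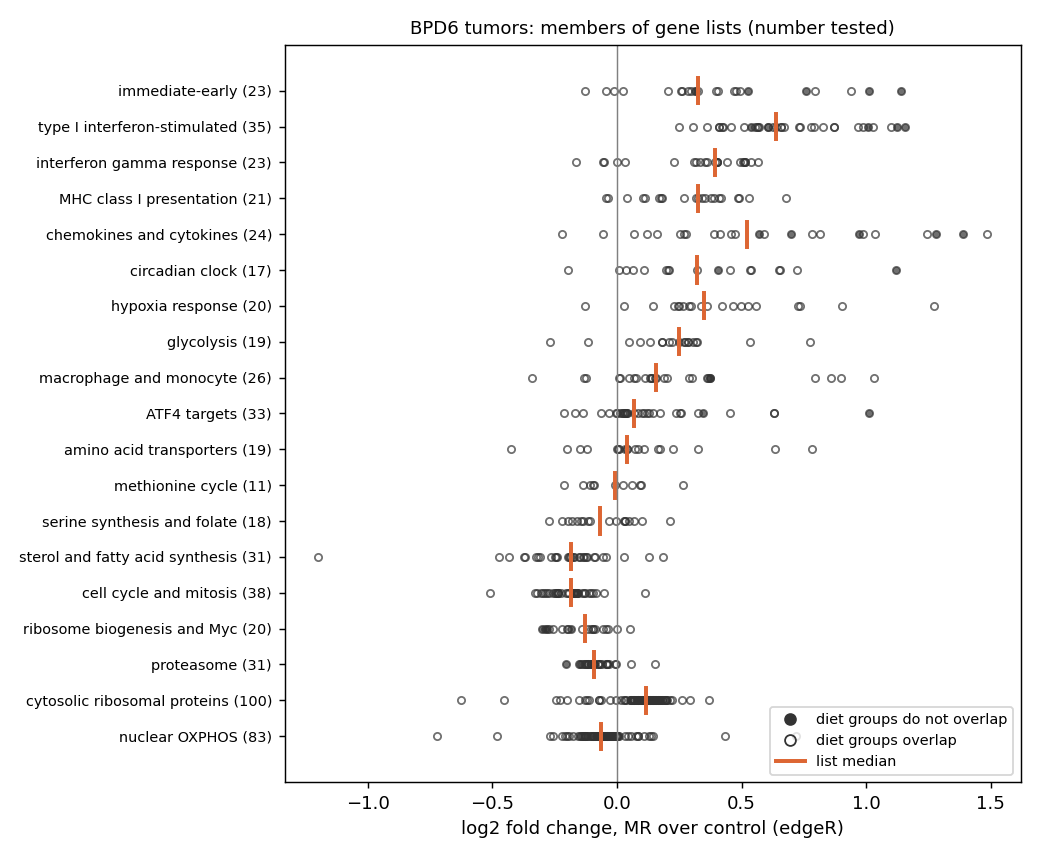
Log2 fold change of MR over control for each tested member (points) of 19 gene lists, with the list median as a bar; filled points are members whose diet groups do not overlap. All 35 type I interferon-stimulated genes lie above 0, 37 of 38 cell cycle genes lie below 0, and the methionine cycle median is -0.01.

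The genes that handle methionine itself lay close to 0, within the spread of the libraries. Of 11 tested methionine cycle genes, 5 were higher and 6 lower, with a median of -0.01 and a range from -0.21 (Pemt) to 0.27 (Nnmt). Mat2a, which makes S-adenosylmethionine outside the liver, was at 159, 166, 131 and 193 CPM in controls and 134, 158 and 192 CPM with MR. Its log2 fold change was -0.01 ± 0.16, and both groups covered nearly the same range. Ahcy, which clears the product of methyl transfer, and Mtr, which remakes methionine, were at -0.11 ± 0.12 and -0.10 ± 0.14. Medians were -0.04 for methionine salvage and polyamine genes, -0.07 for serine and folate genes and 0.03 for transsulfuration and glutathione genes. Methyltransferase genes were lower for 28 of 37 members (median -0.10).

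The ATF4 program was split. Of 33 tested targets, 27 had a higher mean with MR, but the median was only 0.07, and it ran from -0.076 without MR 4 to 0.21 without MR 1. Stress regulators held the members of lowest p: beside Atf3, Cebpb, a factor of inflammation and differentiation, was at 177 to 214 CPM in controls and 234 to 255 CPM with MR (0.35 ± 0.09). Ddit3, the factor CHOP of the stress response, was at 36.5, 52.9, 60.1 and 53.1 CPM in controls and 86.2, 56.9 and 92.2 CPM with MR (0.63 ± 0.21). Ppp1r15a, which restores translation by removing the phosphate from eIF2, was at 27.8 to 53.2 CPM in controls and 51.5 to 78.4 CPM with MR (0.63 ± 0.23). Cebpb did not overlap between the groups, and Ddit3 and Ppp1r15a did. The amino acid genes lay at 0: Asns, asparagine synthetase, had 0.01 ± 0.22, Slc7a5, the carrier of large neutral amino acids, 0.00 ± 0.21, and Slc7a11, the cystine importer, 0.04 ± 0.33. Chac1, which breaks down glutathione, had -0.06 ± 0.17, and Trib3, an inhibitor of ATF4, had 0.32 ± 0.25 with its highest value, 101 CPM, in MR 4. Amino acid transporters were higher for 15 of 19, with a median of 0.04.

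Proliferation and growth genes had slightly lower means with MR. Cell cycle genes were lower for 37 of 38 members with a median of -0.18, and Mki67, the proliferation antigen Ki-67, was at 176, 227, 227 and 162 CPM in controls and 152, 180 and 154 CPM with MR (-0.29 ± 0.15). The groups overlapped in it, and the list's mean level varied within the groups with an SD of 0.23. No cell cycle gene reached an unadjusted p under 0.05 in edgeR with all libraries. Without control 4 there were 11, among 298 of all genes, and without the muscle-high libraries 7, among 431. The median ran from -0.28 (without control 4) to -0.10 (without control 1) with 1 library left out. The 37 of 38 were counted again both without the keratinocyte-high and without the muscle-high libraries, and 32 of 38 were lower without control 1. Ribosome biogenesis genes were lower for 19 of 20 (median -0.13), 4 of them without overlap, against 1.90% of all genes tested. Their median was -0.21 without MR 4 and -0.10 without control 1, the library with the highest sum of this list. Polr1b, a subunit of RNA polymerase I, was at 36.1 to 42.7 CPM in controls and 29.8 to 34.7 CPM with MR (-0.28 ± 0.10), and Dkc1, the pseudouridine synthase of ribosomal RNA, at 67.2 to 88.4 CPM and 55.8 to 61.2 CPM (-0.30 ± 0.12). Myc, a driver of ribosome production, had 0.00 ± 0.25. Cytosolic ribosomal protein genes leaned the other way, with 86 of 100 higher and a median of 0.12 (0.072 without MR 1 and 0.19 without control 1), and many have processed copies that can share reads. Proteasome (29 of 31 lower, median -0.09), nuclear OXPHOS (68 of 83 lower, -0.06) and mitochondrial ribosomal protein genes (64 of 78 lower, -0.05) had medians above 0 once control 1 was left out.

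Sterol and fatty acid synthesis genes were lower for 28 of 31 members (median -0.18). Fasn, fatty acid synthase, was at 271, 307, 382 and 231 CPM in controls and 264, 211 and 218 CPM with MR (-0.37 ± 0.17). The groups overlapped, and the list's median was 0.043 without control 3, with 14 of 31 lower, and -0.51 without MR 1. With the muscle and keratinocyte levels as covariates 31 of 31 were lower, with a median of -0.44. In that fit 9 members reached an edgeR unadjusted p under 0.05, among 223 of all genes, and none passed adjustment. Hypoxia response genes were higher for 19 of 20 (median 0.35) and glycolysis genes for 17 of 19 (0.25). The medians were 0.17 and 0.026 without MR 1, and 0.61 and 0.48 without control 3. Ndrg1, a marker of low oxygen, was at 177, 132, 302 and 147 CPM in controls and 388, 229 and 323 CPM with MR (0.72 ± 0.30). Its control 3 value lay among the MR libraries. The hypoxia list as a whole was highest in MR 1 and control 3, the keratinocyte-high libraries, at 3234 and 3053 CPM. Without both of these 19 of 20 hypoxia genes were higher, with a median of 0.42. With the muscle and keratinocyte levels as covariates 16 of 20 were higher, with a smaller median of 0.16. Glycolysis genes then had 14 of 19 higher and a median of 0.073. Clock genes were higher for 16 of 17 (median 0.32). Without MR 1 this was 11 of 17 with a median of 0.13, and without control 3 the median was 0.50. Nfil3, a repressor in the clock's output, was at 31.1 to 42.9 CPM in controls and 42.9 to 54.5 CPM with MR (0.40 ± 0.13), and Npas2, a paralog of Clock, at 0.853 to 1.14 CPM and 1.58 to 2.86 CPM (1.12 ± 0.32). The labels give no hour of collection.

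The 10 genes of lowest p included further ones outside these lists, none of which passed the edgeR test. Casp4, an inflammatory caspase that senses bacterial lipopolysaccharide in the cytosol, was at 11.1, 11.8, 11.6 and 10.98 CPM in controls and 20.8, 19.0 and 15.7 CPM with MR (0.70 ± 0.13). Hpse, the enzyme that cuts heparan sulfate in the matrix, was at 34.2, 34.7, 41.4 and 27.0 CPM against 70.3, 57.9 and 49.9 CPM (0.79 ± 0.17). Both had non-overlapping groups, with controls of Casp4 within 1 CPM of each other. Neat1, the long noncoding RNA that builds paraspeckles, was at 87.4, 107, 119 and 78.6 CPM against 167, 150 and 243 CPM (0.93 ± 0.20). Acp5, a phosphatase of osteoclasts and activated macrophages, was lower with MR, at 28.3, 32.6, 35.2 and 51.8 CPM against 19.4, 20.1 and 19.3 CPM (-0.91 ± 0.20). Naa16, an auxiliary subunit of the N-terminal acetyltransferase, was also lower, at 19.2 to 21.6 CPM against 12.8 to 15.4 CPM (-0.47 ± 0.12). Stra6l was low in all libraries, at 0.259 to 0.383 CPM against 0.737 to 1.02 CPM (1.38 ± 0.34). All 10 genes kept their sign when any 1 library was left out. This follows from groups that do not overlap and adds no further support.

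**Figure D3:**
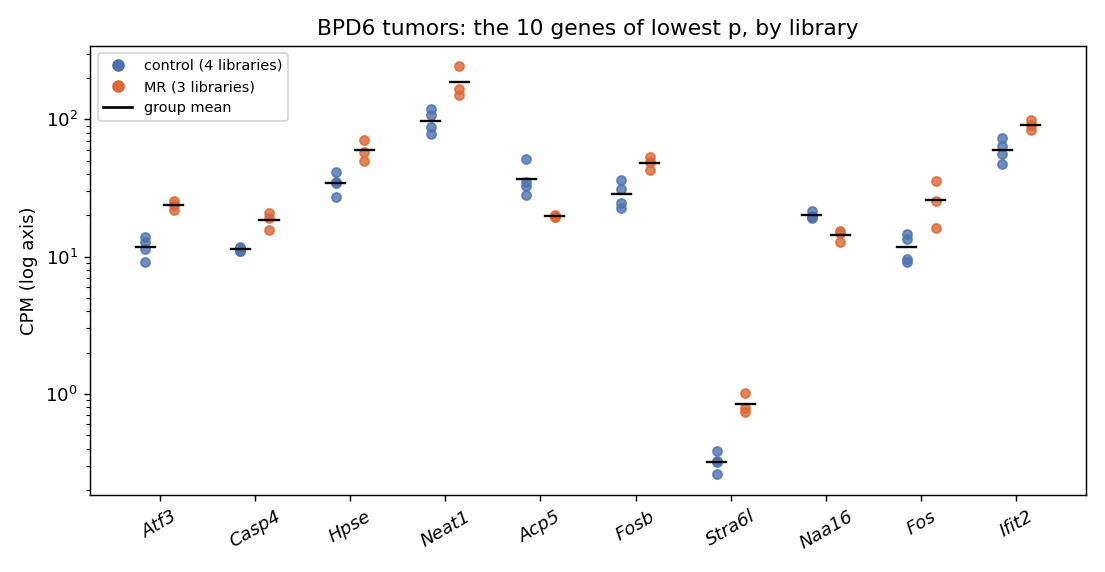
CPM on a log axis of the 10 genes of lowest p in each BPD6 library, 4 control and 3 MR, with the group means as bars. Acp5 and Naa16 are lower and the other 8 genes higher with MR, and in each gene the diet groups do not overlap; none passed the edgeR test.

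The diet difference in BPD6 was compared with that in MC38 tumors, 4 control and 4 MR libraries, by the interaction of tumor model and diet over 14257 genes. In edgeR 0 genes (0%) passed, with a lowest adjusted p of 0.849, and 742 (5.20%) reached an unadjusted p under 0.05. DESeq2 called 7 and limma-voom 0. MC38 on its own had 0 of 14034 genes past the edgeR test and 1981 (14.1%) at an unadjusted p under 0.05. The gene of lowest interaction p was Cds2, an enzyme of phosphatidylinositol synthesis, with 0.12 ± 0.08 in BPD6 and -0.86 ± 0.16 in MC38. Mafg, a small Maf factor of antioxidant genes, had 0.16 ± 0.09 and -0.57 ± 0.11, and Slc9a8, a sodium-proton exchanger, 0.26 ± 0.09 and -0.29 ± 0.08. For Cds2 and Mafg most of the contrast lay in MC38, while for Slc9a8 both models contributed about equally.

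The 10 genes of lowest p in BPD6 were mixed in MC38. Fos (0.35), Stra6l (0.32), Casp4 (0.23) and Ifit2 (0.13) were above 0 there as in BPD6, and Naa16 (-0.17) was below 0 as in BPD6. Neat1 (-0.46), Fosb (-0.23), Hpse (-0.17), Atf3 and Acp5 (0.58) had the other sign. No difference between models passed the test. Atf3 had a log2 fold change of -0.018 in MC38, and the difference between models was 1.03 ± 0.28 with an edgeR adjusted p of 0.849. Rsad2 had -0.32 in MC38, a difference of 1.33 ± 0.40 with the same adjusted p. Cd274 had -0.10 in MC38, a difference of 1.01 ± 0.38, again at an adjusted p of 0.849. Of the 35 type I interferon genes 18 were above 0 in MC38 (median 0.01), and of the 23 immediate-early genes 17 were (median 0.10). Conversely, MHC class II genes had a median of 1.296 in MC38 with 9 of 9 higher, and macrophage genes 0.67 with 25 of 25 higher, against -0.02 and 0.16 in BPD6. Fat cell genes had a larger median in MC38, 1.99 with 12 of 12 higher. T cell genes had 1.15 and B cell genes 1.49. These MC38 medians come without a spread between libraries, and the tissue content of the MC38 libraries was not tested. Chac1 was at -0.06 ± 0.17 in BPD6 and -0.70 in MC38.

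**Figure D4:**
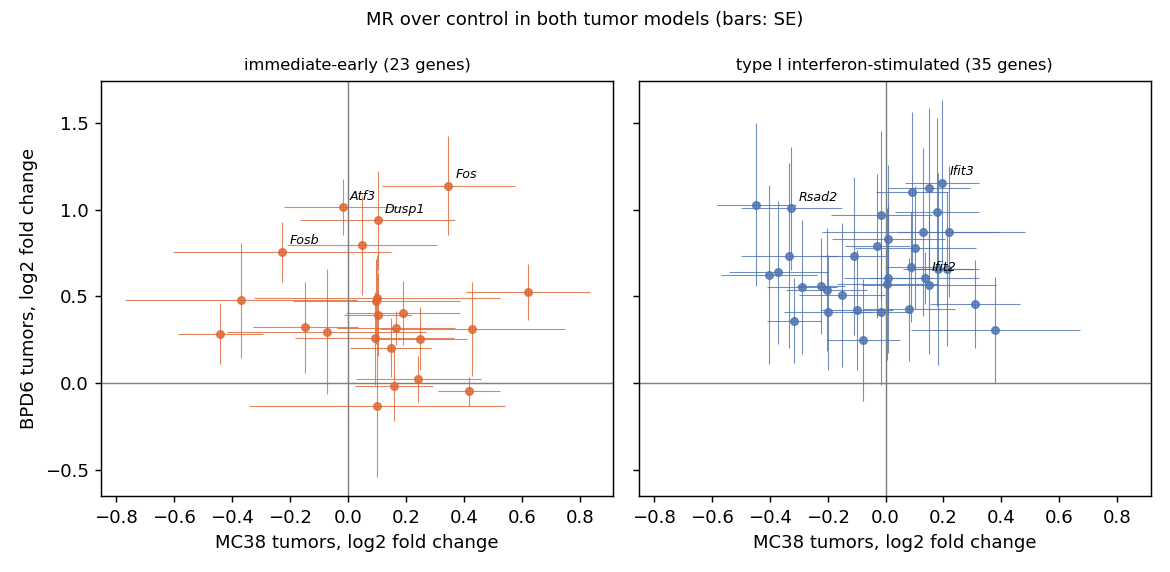
Log2 fold change of MR over control in BPD6 (vertical axis) against MC38 (horizontal axis) for 23 immediate-early and 35 type I interferon-stimulated genes; bars are standard errors. Interferon genes all lie above 0 in BPD6 and on both sides of 0 in MC38, where 18 of 35 are above 0.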

How the data were processed

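RNA-seq of BPD6 tumors from mice on a control chow (4 libraries) or an MR diet (3 libraries) was analysed from the table the authors deposited. Per the labels' protocols, poly-A RNA was sequenced on an Illumina platform. The table holds estimated counts per gene, deposited by the authors without normalization and in steps of 0.5; 46.6% of values are not whole, and they were rounded to whole numbers. Listed genes all have 6 or more counts in their highest library. The submitters' processing notes name the build GRCm38 (mm10). Aligner, counter and strand setting were not given in the sources used here, so reads of overlapping antisense genes cannot be told apart. The table also holds the authors' own log2 fold changes, their standard errors and p-values, per the file headers; these are quoted only where named as the authors' deposited table. Another 27 columns hold per-library values that stayed out.

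Control columns were matched to samples by name and MR columns to their group only, because the labels number MR samples otherwise. The test was edgeR 4.0.16, quasi-likelihood, run in R 4.3.3 (filterByExpr, TMM, Benjamini-Hochberg over all 13978 genes, threshold 0.05). List levels are means of log2(CPM + 0.5) over tested members; list sums are CPM over all listed members. Alternatives were other scaling, filters, unrounded values, DESeq2 1.42.0, limma-voom 3.58.1, a replicate block, leaving out each library, and, added after seeing the data, leaving out the muscle-high or keratinocyte-high libraries or taking both levels as covariates. Scripts were tested on simulated data. The genes named are the 10 of lowest p, up to 4 members of lowest p of each list with at least 80% of 5 or more tested members on one side, 18 fixed genes, and the 3 of lowest interaction p, except a few not reported here; others were picked from the lists after their values were seen. Members and lists were chosen with earlier results of these data known. Positions and promoter sequences are from RefSeq (GRCm38.p6). Every pair of libraries differed by more than sampling noise (chi-square over its degrees of freedom 18.4 to 90.8).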

Additional observations from a re-analysis of the deposited data

Results flagged for a closer look

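Within the 4 control libraries 1 library stood far from the other 3 for 14 of 129 genes and list sums examined. Chance alone flags about 1 in 20 where values are independent and normally distributed. Here lists and their own members were both counted, so the 14 flags cannot be set against that rate. Control 4 was apart in 6 of the 14. It was high in the skeletal muscle list (8645 CPM against 165 to 1285), in Atp2a1 (1003 CPM against 28.6 to 141), in Neb (205 CPM against 3.28 to 26.9) and in glucocorticoid target genes (2317 CPM against 1757 to 1812). It was low in the MHC class I list (5733 CPM against 8836 to 9418) and in B2m (1311 CPM against 1842 to 1906). Control 3 was high in Krt5 (129 CPM against 0 to 0.217), in Hmox1 (116 CPM against 65.9 to 73.8) and in the circadian clock list (752 CPM against 482 to 524). Control 1 was high in mitochondrial ribosomal protein genes (3508 CPM against 2619 to 2763), ribosome biogenesis genes (3214 CPM against 2808 to 2846), Dkc1 (88.4 CPM against 67.2 to 69.9) and Pemt (2.82 CPM against 1.31 to 1.56). Control 2 was high in Npas2 (1.14 CPM against 0.853 to 0.875). The 3 MR libraries were too few for this check.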

How the results depend on the processing

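The edgeR count of genes past an adjusted p of 0.05 was 0 under other scaling, filters, unrounded values, limma-voom, the replicate block, each library left out (0 to 0) and the 3 alternatives added after seeing the data; DESeq2 called 1. The number at an unadjusted p under 0.05, 258 as reported, was 797 with the replicate block, 148 without the keratinocyte-high and 431 without the muscle-high libraries, and 110 to 514 with 1 library left out (110 without MR 1, 396 without control 1, 463 without control 3, 514 without MR 2); the cause was not tested. Libraries of the same column number did not resemble each other (correlations of deviations -0.18, 0.05 and -0.09). Control 3 and MR 1, the keratinocyte-high libraries, had 0.744. These correlations cannot exclude a pairing, so whether the numbers mark pairs is open. Control 3 has no MR library of its number. With the block 34 of 35 type I interferon genes reached an edgeR unadjusted p under 0.05, among the 797 genes, and none passed adjustment. For the difference between tumor models DESeq2 called 7 genes, and the other alternatives 0. Of 26 lists with at least 80% of members on one side, 14 medians kept their sign under every one of 17 alternatives and 12 did not. Of 69 genes with a printed fold change, 20 changed sign under some alternative, none of them called. Depth limits the rare T cell genes, and 3 MR libraries limit every comparison. Log2 fold changes that changed sign, all of them small or widely spread as reported, were as follows. For Myc the value was 3.0e-05 with DESeq2 size factors and 0.0020 with no filter. With limma-voom Asns was -0.012, Slc7a5 -0.018, Myc 0.0067 and Ier5 0.013, and with the replicate block Asns was -0.15, Ier2 -0.052, Slc7a11 -0.098 and Slc7a5 -0.11. Without the keratinocyte-high libraries Gzmb was -0.25, Prf1 -0.20, Mat2a 0.019, Mtr 0.014 and Myc 0.017. Without the muscle-high libraries Cd8a was -0.34, Cxcl9 -0.048, Prf1 -0.22, Parp14 -0.12, Ier2 -0.081, Ier5 0.051, Jun 0.0047, Mat2a 0.10, Myc 0.26 and Nfatc1 0.092. With both levels as covariates Egr3 was 0.27, Ier5 0.14, Mat2a 0.065 and Myc 0.055. With 1 library left out, the range was -0.22 to 0.21 for Asns, -0.14 to 0.093 for Chac1, -0.36 to 0.22 for Egr3, -0.15 to 0.0067 for Fkbp5, -0.24 to 0.63 for Gzmb, -0.055 to 0.10 for Ier2, -0.17 to 0.10 for Ier5, -0.15 to 0.11 for Mat2a, -0.0056 to 0.32 for Mitf, -0.21 to 0.035 for Mtr, -0.25 to 0.17 for Myc, -0.30 to 0.071 for Nfatc1, -0.34 to 0.095 for Pemt, -0.16 to 0.44 for Prf1, -0.14 to 0.37 for Slc7a11 and -0.21 to 0.19 for Slc7a5.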

Other observations

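Genes known from osteoclasts, the bone-resorbing relatives of macrophages, had lower means with MR next to Acp5; they were chosen after their values were seen, so no count over them is given and their values are a description. Mmp9, a matrix protease, was at 24.4, 35.5, 79.5 and 82.4 CPM in controls and 17.9, 11.8 and 19.7 CPM with MR, a log2 fold change of -1.75 ± 0.45. Oscar, a receptor of the osteoclast lineage, was at 0.571 to 1.12 CPM against 0.153 to 0.393 CPM (-1.66 ± 0.47). In both genes all MR libraries lay below all controls. Dcstamp, needed for the fusion of osteoclasts, was at 0.488 to 1.39 CPM against 0.211 to 0.492 CPM (-1.34 ± 0.50), with the groups just meeting, and Ctsk, cathepsin K, overlapped at 29.98 to 89.1 CPM against 19.1 to 51.6 CPM (-0.91 ± 0.50). Nfatc1, the factor that drives osteoclast formation, had -0.16 ± 0.24, and Tnfrsf11a, the receptor RANK, had -0.14 ± 0.18. Mmp9 is also in the neutrophil list, where 5 of 7 genes were higher with MR (median 0.33). In the list of matrix-degrading proteases, which holds it too, 16 of 23 were higher (median 0.05). Whether cells of the osteoclast type differed between diets was not tested. In MC38 the values of Acp5 and Mmp9 were 0.58 and 0.99, in the opposite direction. No gene of this paragraph passed edgeR's test after adjustment, in either model or between them.

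Other stress genes chosen in the same way were Hspa1a, an inducible HSP70 chaperone, at 16.5 to 27.8 CPM in controls and 30.2, 36.1 and 57.8 CPM with MR (0.87 ± 0.25), and Hmox1, heme oxygenase, at 65.9 to 116 CPM against 115 to 157 CPM (0.78 ± 0.22). The remaining heat shock genes did not follow Hspa1a, since 14 of the 20 tested had lower means with MR. Tsc22d3, a glucocorticoid-induced regulator, was at 51.7 to 53.5 CPM in controls and 58.2 to 75.9 CPM with MR (0.37 ± 0.11), while Fkbp5, another classical target, had -0.08 ± 0.12.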
